A study of Mus musculus with 6 samples.

Results

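The cells described here are 942 of 34834 skin cells, 2.70%, that were chosen by their UMI counts (UMIs are single captured RNA molecules) as upper follicle keratinocytes expressing Krt79 and Defb6. A cell was taken when its UMIs numbered 500 or more over 300 or more genes, no more than 10% of them were mitochondrial, and Krt79 and Defb6 together gave 2 or more. It also had to hold fewer than 2 UMIs of Nppb, fewer than 2 of Epgn, fewer than 3 of Mki67, Top2a and Cdk1 together, fewer than 5 of Col1a1, Col1a2, Col3a1 and Dcn together, and fewer than 3 of Lyz2. The levels of these genes chose the cells and are given as a description only.

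The donors were wild-type C57BL/6 males, an inbred strain, aged 8, 26 or 52 weeks, whose whole back skin was dissociated. At each age there was 1 library of untreated skin and 1 of skin exposed ex vivo to PBMC-sec, the secretome of gamma-irradiated peripheral blood mononuclear cells. Each library pooled 3 animals, so animals within a pool cannot be separated, and there is 1 library per age and treatment. The untreated skin was not held ex vivo, so the exposure to PBMC-sec and the time outside the body cannot be told apart. The series as a whole asks how macrophages of mouse skin change with age, and the keratinocytes here were dissociated along with them.

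The upper hair follicle is the stretch between the skin surface and the bulge. It comprises the infundibulum, which is the funnel through which the hair leaves the skin, the junctional zone beneath it, and the duct through which sebaceous glands empty. Krt79, a type II keratin, marks cells that line the forming hair canal and the infundibulum. Defb6 encodes a beta-defensin, one of the small cationic peptides with which epithelia hold back microbes. Cst6 encodes cystatin M/E, an inhibitor of the cysteine proteases legumain and cathepsins that act in cornification, the process by which keratinocytes become dead barrier cells. Among the other genes known from this region, Lrig1 and Plet1 mark junctional zone cells, and Gata6 is a transcription factor of the sebaceous duct and upper follicle.

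The sequences around the start sites of 5 genes are shown because 2 of them, Krt79 and Defb6, chose the cells, and the other 3 are among the genes with PBMC-sec results described further on. Each runs from 250 bases before to 50 bases after the start, on the gene's own strand, from RefSeq with build GRCm38.p6. Krt79 lies at chr15:101940275-101940574 on the minus strand, and Defb6 at chr8:19225228-19225527 on the plus strand. Sprr1b lies at chr3:92438730-92439029 on the minus strand, Flg2 at chr3:93197023-93197322 on the plus strand, and Isg15 at chr4:156200769-156201068 on the minus strand. Capitals mark matches, on either strand, to the AP-1 motif TGANTCA, the GATA motif AGATAA and the interferon response motif GAAANNGAAA.
Krt79: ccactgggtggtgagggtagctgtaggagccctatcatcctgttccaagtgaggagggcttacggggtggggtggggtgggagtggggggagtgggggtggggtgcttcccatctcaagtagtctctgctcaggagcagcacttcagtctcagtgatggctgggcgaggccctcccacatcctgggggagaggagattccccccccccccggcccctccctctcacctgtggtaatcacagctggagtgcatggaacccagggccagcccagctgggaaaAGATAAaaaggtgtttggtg
Defb6: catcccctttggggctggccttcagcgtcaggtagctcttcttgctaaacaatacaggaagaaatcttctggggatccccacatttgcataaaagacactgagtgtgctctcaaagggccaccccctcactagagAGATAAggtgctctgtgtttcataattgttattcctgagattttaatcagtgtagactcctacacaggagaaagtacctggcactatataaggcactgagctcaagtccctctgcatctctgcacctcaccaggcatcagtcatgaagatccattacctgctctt
Sprr1b: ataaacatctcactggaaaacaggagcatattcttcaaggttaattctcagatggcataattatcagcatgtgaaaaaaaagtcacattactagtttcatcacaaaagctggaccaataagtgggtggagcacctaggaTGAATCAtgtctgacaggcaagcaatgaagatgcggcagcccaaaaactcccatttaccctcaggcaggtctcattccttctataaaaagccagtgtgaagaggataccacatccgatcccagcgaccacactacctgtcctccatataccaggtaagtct
Flg2: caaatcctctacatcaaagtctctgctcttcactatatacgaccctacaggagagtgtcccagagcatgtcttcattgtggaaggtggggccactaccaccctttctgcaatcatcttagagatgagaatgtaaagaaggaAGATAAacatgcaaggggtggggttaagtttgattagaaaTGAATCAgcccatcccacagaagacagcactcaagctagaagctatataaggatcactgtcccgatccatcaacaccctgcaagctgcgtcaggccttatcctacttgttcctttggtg
Isg15: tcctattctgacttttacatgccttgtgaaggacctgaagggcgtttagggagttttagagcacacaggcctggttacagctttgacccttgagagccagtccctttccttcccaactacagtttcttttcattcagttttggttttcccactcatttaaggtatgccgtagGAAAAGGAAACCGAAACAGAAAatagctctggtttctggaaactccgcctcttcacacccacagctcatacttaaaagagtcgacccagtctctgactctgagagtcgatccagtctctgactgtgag
Both marker genes held 1 GATA match, in Krt79 30 bases after the start and in Defb6 115 bases before it. Sprr1b held an AP-1 match 111 bases before its start, and Flg2 held an AP-1 match 69 bases before and a GATA match 109 bases before. Isg15 held 3 interferon motif matches that overlap in the single run of capitals. Of 32851 promoters of this length, 7.81% held the AP-1 motif, 11.2% the GATA motif and 3.44% the interferon motif. The 5 are shown for their matches: of 4 further PBMC-sec genes read, Lce3e, Psors1c2 and Pinlyp held none of the 3 motifs and Sprr2i held 1 AP-1 match. These matches describe letters only.

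The check of the label against its markers gave a split answer. Cst6, which was no part of the rule, had at least 1 UMI in 693 of the 942 cells (73.6%), and its summed level was 15013, 10751 and 9693 CPM (UMIs per 1000000 UMIs of the sum) in the untreated libraries at 8, 26 and 52 weeks. In the PBMC-sec libraries it was 7599, 4887 and 8048 CPM at the same ages. Other keratinocytes, defined as cells with no Krt79 or Defb6 UMI and at least 5 UMIs of Krt5, Krt14, Krt1 and Krt10 together, held 219 to 562 CPM of Cst6 across the 6 libraries. After each cell was thinned to 1000 UMIs, 41.9 to 70.5% of the chosen cells kept a Cst6 UMI, against 7.16 to 15.8% of other keratinocytes and 1.47 to 5.72% of fibroblasts, which should lack it. Suprabasal keratinocytes, the differentiating layer in which Cst6 is also made, reached 26.6 to 36.1%. So the chosen cells were rich in the third marker in every library, but the marker was not theirs alone.

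The cells fell into 3 kinds by which gene had let them in. Both Krt79 and Defb6 UMIs were present in 436 cells, Defb6 UMIs alone in 352 and Krt79 UMIs alone in 154. The cells with both genes stood highest in several upper follicle genes, but not in all of them. Their median level of Cst6 over the 6 libraries was 22678 CPM, against 1279 CPM in Defb6-only and 1898 CPM in Krt79-only cells. Alox12e, an epidermal 12-lipoxygenase, had a median of 122 CPM in cells with both genes, 3.32 CPM in Defb6-only and 4.06 CPM in Krt79-only cells. Gata6 had a median of 54.5 CPM in cells with both genes, 7.57 CPM in Defb6-only and 11.1 CPM in Krt79-only cells. Cst6, Alox12e, Gata6 and Plet1 were each higher in cells with both genes than in either other kind in 6 of 6 libraries. Of the other upper follicle genes listed, Lrig1 and Fst were higher than in Defb6-only cells in 6 and 4 of 6 libraries. Krt17, Klk10 and Defb1 were higher than in Defb6-only cells in only 1, 2 and 1 of 6. Against Krt79-only cells all of these were higher in 4 to 6 of 6 libraries.

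The Defb6-only cells were rich in genes of the differentiating epidermis. Lor, the major protein of the cornified envelope, had a median of 12353 CPM there, against 1395 CPM in cells with both genes and 65.4 CPM in Krt79-only cells. Krtdap, a secreted protein of differentiating keratinocytes, had medians of 12473, 6038 and 2030 CPM in the same order. Krt10, the suprabasal keratin, had medians of 1282, 416 and 70.7 CPM. Against suprabasal keratinocytes, Defb6-only cells held more Plet1, Lrig1, Fst and Klk10 in 6 of 6 libraries, and more Gata6 in 5 of 6. Krt17 and Defb1 were higher than in suprabasal cells in 4 of 6 libraries and Cst6 in 3 of 6. Lor, Krtdap and Krt10 were higher than in suprabasal cells in 2, 3 and 2 of 6. The Defb6-only cells were not the shallower ones, with a median of 6687.5 UMIs per cell against 3556.5 in cells with both genes. Lor was lower in Defb6-only cells than in cells with both genes in 2 of 6 libraries, the PBMC-sec ones at 8 weeks (16.3 against 23484 CPM) and 52 weeks (1955 against 2536 CPM), and Krtdap and Krt10 were in 1 of 6. The Krt79-only cells held the lipid genes of the sebaceous gland in some libraries: Scd1, which makes monounsaturated fatty acids, had a median of 1078 CPM there (40.8 to 5371 CPM), 24.99 CPM in cells with both genes and 59.2 CPM in Defb6-only cells. The chosen cells without sebaceous markers, defined further on by Scd1 among others, held 31.9 to 51.3 CPM of Scd1, which follows in part from that definition. By Cst6, Plet1 and Gata6 the label matched best the 46.3% of cells with both genes. The other cells are named below by the gene that let them in.

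**Figure D1:**
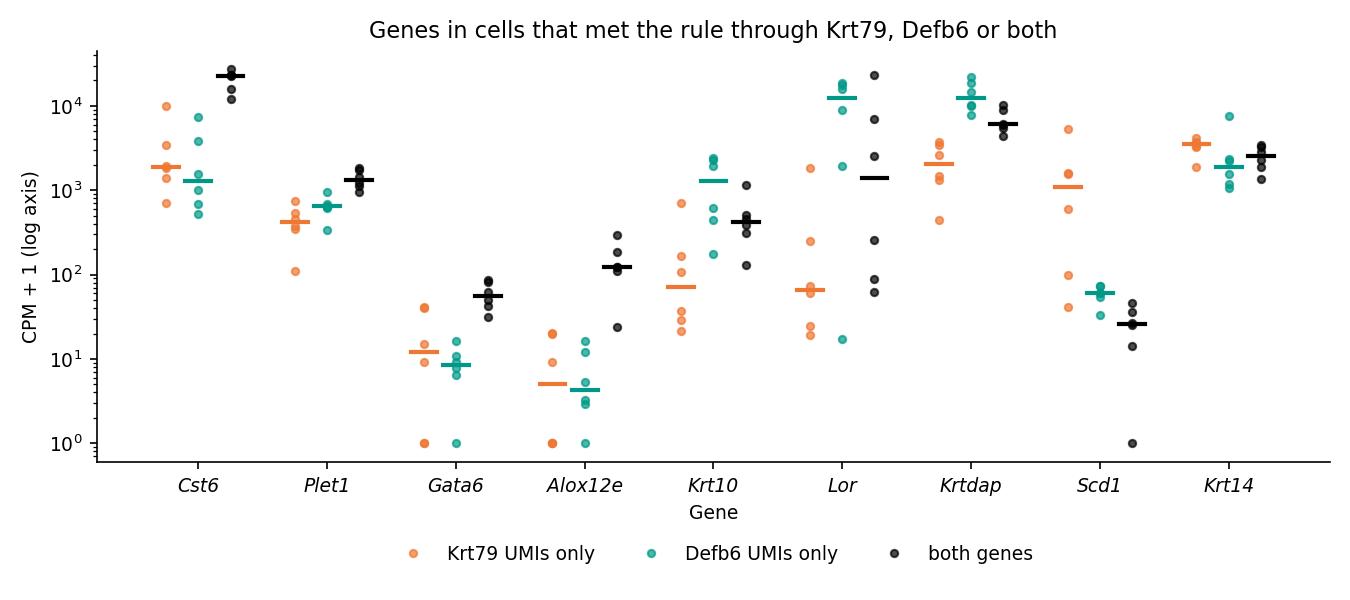
Summed levels (CPM + 1, log axis) of 9 genes in cells with Krt79 UMIs only, Defb6 UMIs only or both; each point is 1 of 6 libraries and each bar a median over libraries. Cst6, Plet1, Gata6 and Alox12e stand highest in the cells with both genes, with a median of 22678 CPM for Cst6, while Krtdap stands highest in Defb6-only cells at 12473 CPM and Scd1 in Krt79-only cells at 1078 CPM.

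Values near the threshold showed the same gradient. Among cells with at least 5 UMIs of the 4 keratins, the median Cst6 level over libraries was 338 CPM in cells with no Krt79 or Defb6 UMI and 674 CPM in the 778 cells with 1 UMI, just outside the rule. Just inside, the 158 cells with 2 UMIs held 926 CPM, the 133 cells with 3 or 4 UMIs held 1218 CPM, and the 395 cells with 5 or more held 11250 CPM. Cells barely inside the rule were thus closer to those outside it than to cells deep inside. In 256 of the 942 cells the 4 keratins reached fewer than 5 UMIs, yet these cells held a median of 20462 CPM of Cst6.

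Beside Cst6, several genes stood far above other keratinocytes in all 6 libraries. Slc5a8, a sodium-coupled transporter of short monocarboxylates, was at 28.0 to 110 CPM against 2.68 to 7.94 CPM. Pdk4, the kinase that turns off pyruvate dehydrogenase, was at 13.4 to 117 CPM against 1.28 to 27.9 CPM. Plet1 was at 605 to 1216 CPM against 239 to 368 CPM, and Krt17, a keratin of follicle epithelium, at 4923 to 12269 CPM against 2006 to 3872 CPM. The ranges of Slc5a8, Plet1 and Krt17 in the chosen cells did not overlap those of other keratinocytes, most of which were basal cells (10556 of 13532). Suprabasal keratinocytes alone held 4209 to 11560 CPM of Krt17 and 7.49 to 31.9 CPM of Slc5a8, which overlap the chosen cells, and 33.4 to 227 CPM of Plet1, which do not. Nebl, Skint3, Plxdc2, Ly6g6c, Dsc1, Egr2, Alox12e, Cstb, Slc39a2 and Igfbp4 were also among the 15 genes with the largest lowest ratio over the 6 libraries. Of the 10 upper follicle genes listed for this work, all 10 were tested below. Krt79 and Defb6, whose UMIs chose the cells, are among them, so their values are in part set by the rule.

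Markers of most other cells were low. Summed over its list, each library held 14.4 to 113 CPM of 9 fibroblast genes, 52.1 to 125 CPM of 10 macrophage genes, 2.60 to 14.9 CPM of 8 T cell genes, 1.83 to 23.6 CPM of 7 endothelial genes, 8.24 to 46.9 CPM of 7 pericyte or muscle genes and 0 to 3.81 CPM of 6 melanocyte genes. The fibroblast list holds Col1a1, Col3a1 and Dcn, which the rule limited, so its low sum follows in part from the rule. Of the T cell, melanocyte and neutrophil genes, 2 each were at 0 in every library. Neutrophil genes summed to 318 to 1719 CPM, most of it S100a8 and S100a9, which stressed keratinocytes also make. The Langerhans list summed to 1034 to 1712 CPM, led by Epcam, which keratinocytes of the follicle also express, with the MHC class II genes Cd74, H2-Ab1 and H2-Aa next. In Defb6-only cells Cd74 was at 58.1, 677 and 233 CPM in untreated and 867, 463 and 562 CPM in PBMC-sec skin at 8, 26 and 52 weeks (log2 change 1.53; edgeR adjusted p = 0.18), and in cells with both genes at 5.33 to 110 CPM. The part of Langerhans cell RNA in the results was not tested. Sebaceous markers (Scd1, Mgst1, Elovl3 and Awat1 together at least 5 UMIs) were present in 28 of the 942 cells, and their share was 7.69% in PBMC-sec skin at 8 weeks, where 5 of 65 cells held them, 1.53% in untreated skin of that age, and 2.55 to 3.23% in the 4 other libraries. Near-identical repeated barcodes made up 72 of the 196 chosen cells of the untreated 8-week library, and 4315 of all its 9237 kept cells. That library stands apart in this respect: the other libraries held 2 chosen cells of that kind in all. The values below are with those cells, and leaving them out changed no count of genes by over 1.5 times and, among the named genes, ended the call of Lcn2 below (edgeR adjusted p = 0.056). Over the 34834 kept cells 690 barcodes occurred in more than 1 library, and 40 of the chosen cells had a barcode that another library also held, but no barcode marked a chosen cell in more than 1 library.

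The share of these cells was highest at 52 weeks in both treatments. In untreated skin they made up 2.12% of cells at 8 weeks (196 cells, exact 95% interval 1.84 to 2.44), 2.31% at 26 weeks (129 cells, 1.93 to 2.74) and 4.40% at 52 weeks (162 cells, 3.76 to 5.11). In PBMC-sec skin they made up 1.19% at 8 weeks (65 cells, 0.920 to 1.52), 2.62% at 26 weeks (155 cells, 2.23 to 3.06) and 4.75% at 52 weeks (235 cells, 4.17 to 5.38). These intervals cover counting error only and not the spread between mice. The 52-week share was 2.07 times the 8-week share in untreated and 3.99 times in PBMC-sec skin, and 1.77 and 4.02 times without the repeated barcodes. Among keratinocytes alone the chosen cells made up 3.41, 5.59 and 14.2% of untreated cells at 8, 26 and 52 weeks. Of PBMC-sec keratinocytes they made up 2.86% and 8.46% at 8 and 26 weeks, and 235 of 1175 at 52 weeks. These shares kept the repeated barcodes, which lower the untreated 8-week value. Without them that library held 124 chosen cells beside 2519 other keratinocytes, against 196 beside 5554 with them. Because deeper cells reach the UMI limits more easily, the share was also taken after each cell was thinned to 1000 UMIs, which left out 416 to 4046 shallower cells per library. It was then 2.10, 1.69 and 3.04% in untreated skin at 8, 26 and 52 weeks and 0.684, 1.91 and 3.49% in PBMC-sec skin, so the 52-week libraries stayed highest. Of fibroblasts, 0 to 1.05% reached the same Krt79 and Defb6 limit, which measures what free RNA can give. Dissociation yield also sets a share, and with 1 library per condition its part was not tested.

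PBMC-sec did not move the share one way. The log2 ratio of the shares, PBMC-sec over untreated, was -0.83, 0.18 and 0.11 from the youngest to the oldest mice, and averaged -0.18 ± 0.57 (SD, n = 3 ages; exact two-sided sign-flip permutation p = 1, where 3 pairs cannot go below 0.25). The Nppb and Epgn limits of the rule weighed unequally on these libraries. Of all cells with at least 2 Krt79 and Defb6 UMIs, they removed 14.7, 21.6 and 17.4% from untreated skin at 8, 26 and 52 weeks, and 33.3, 46.4 and 36.4% from PBMC-sec skin. Nppb is a natriuretic peptide and Epgn a ligand of the EGF receptor. These percentages were not matched for depth, and the treated libraries were the deeper ones at every age, with a median of 2613, 3493.5 and 4804 UMIs per kept cell against 1128, 2211 and 3064. Without these limits the shares were 2.48, 2.98 and 5.40% in untreated and 1.80, 4.95 and 7.52% in PBMC-sec skin, with a mean log2 ratio of 0.25 (exact sign-flip permutation p = 0.5, n = 3).

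**Figure D2:**
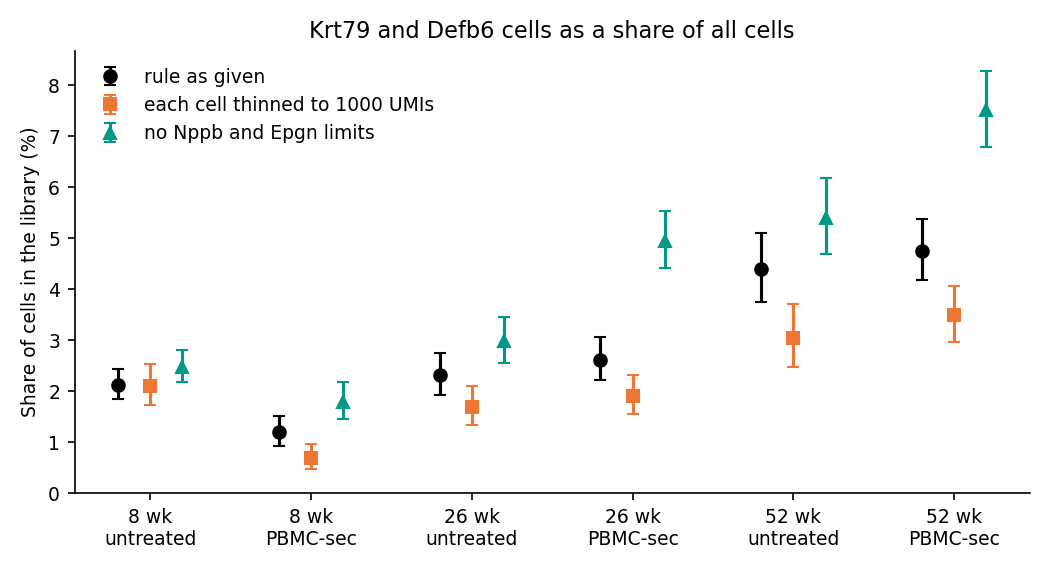
Share of cells (%) in each of the 6 libraries under the rule, after thinning each cell to 1000 UMIs, and without the Nppb and Epgn limits; bars are exact 95% intervals for counting error. Under the rule both 52-week libraries, at 4.40 and 4.75%, stand above the other 4, which lie between 1.19 and 2.62%.

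With PBMC-sec, transcripts of Akr1b3, Lce3e, Pinlyp, Sprr1b and Ggh rose in the chosen cells, and those of Defb4, Sprr2i, Flg2, Anxa9 and Psors1c2 fell. UMIs were summed over the cells of each library and fitted with age as a covariate, so that the 3 ages served as samples of the treatment difference. Of 7141 genes tested, 45 (0.63%) passed an adjusted p of 0.05 in edgeR's quasi-likelihood test, 22 higher (0.308%) and 23 lower (0.322%), and 644 had an unadjusted p under 0.05. The cells of a library share its pool and its handling, so p-values measure only how the treatment difference varied between ages.

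Akr1b3, the aldose reductase that reduces aldehydes and glucose, rose at every age. It was at 14.9, 11.3 and 21.9 CPM in untreated cells at 8, 26 and 52 weeks and at 214, 196 and 250 CPM in PBMC-sec cells, a log2 change of 3.99 ± 0.32 (SE; edgeR adjusted p = 4.3e-06). All 3 treated libraries stood far above all 3 untreated, and 24, 45 and 52 treated cells held an Akr1b3 UMI, so no single cell carried the change. In the cells with both marker genes the change was 3.16 (edgeR adjusted p = 0.025), and in other keratinocytes 4.92 (edgeR adjusted p = 0.011). Among those with both genes 9, 9 and 20 treated cells held Akr1b3, and 1 cell gave 45.8, 25 and 67.1% of its UMIs. Less the top cell of each library it was there at 98.3, 26.0 and 33.3 CPM treated, against 13.1, 0 and 12.6 CPM untreated.

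Sprr1b, a small proline-rich protein that is cross-linked into the cornified envelope and is known to rise in stressed epidermis, went from 1374, 1517 and 867 CPM to 8355, 6159 and 7521 CPM at 8, 26 and 52 weeks. The log2 change was 2.75 ± 0.54 (SE; edgeR adjusted p = 0.025), and after thinning to 1000 UMIs the share of cells with a UMI was 43.3, 31.1 and 26.3% in untreated and 70.5, 56.8 and 52.9% in PBMC-sec skin. Here the groups did not overlap either, though without the 8-week pair the edgeR adjusted p was 0.165 and without the 26-week pair it was 0.148, with log2 changes of 2.83 and 3.13. Lce3e, a late cornified envelope gene of a family induced on barrier damage, went from 4.25, 6.18 and 5.72 CPM to 46.9, 126 and 235 CPM (log2 change 4.77 ± 0.45 SE; edgeR adjusted p = 2.6e-05). Its rise came from few cells: 3, 6 and 8 treated cells held it, and the cell with the most UMIs gave 77.8, 52.0 and 88.5% of them. Summed without that cell in each library, Lce3e still rose, by 4.003 (edgeR adjusted p = 0.012).

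Pinlyp, a secreted protein of the phospholipase inhibitor and urokinase receptor fold, went from 37.2, 19.6 and 8.58 CPM to 227, 148 and 79.8 CPM, a log2 change of 3.01 ± 0.33 (SE; edgeR adjusted p = 0.00016). The value was 3.70 in Defb6-only cells, while cells with both genes gave 0.56 (edgeR adjusted p = 0.97). The difference between these kinds of cell was not tested, here or for the genes below. Ggh, the lysosomal enzyme that trims folate tails, went from 132, 152 and 83.9 CPM to 495, 340 and 305 CPM (log2 change 1.81 ± 0.33 SE; edgeR adjusted p = 0.013). In cells with both genes the Ggh value was 0.12 (edgeR adjusted p = 0.98) and in Defb6-only cells 2.22 (edgeR adjusted p = 0.0014). Gpx2, a glutathione peroxidase and target of the oxidative stress factor NRF2, went from 6.38, 49.4 and 7.63 CPM to 23.4, 215 and 13.8 CPM (log2 change 1.84 ± 0.35 SE; edgeR adjusted p = 0.020), and without the 26-week pair its adjusted p was 0.26. Gpx2 stood highest at 26 weeks in both treatments.

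The other named genes that rose were Tm4sf1, a small membrane protein of migrating cells (1.77), Prrg4 (1.73), Psat1, an enzyme of serine synthesis (1.55), Ccdc71l (1.51), Rnf19b, a ubiquitin ligase (1.44), and Hspa4l, a heat shock protein of the Hsp110 family (1.43 on the log2 scale). Prrg4 and Rnf19b were the most widely held, in 23 to 94 and 33 to 128 treated cells per library. Psat1, Ccdc71l and Hspa4l passed only with the 8-week pair, without which their edgeR adjusted p was 0.100, 0.148 and 0.095. Psat1 gave 0.08 in cells with both genes and 2.71 in Defb6-only cells (edgeR adjusted p = 1.0 and 0.0011). Fst, the activin-binding follistatin, was the only gene of the upper follicle list that changed (1.83, edgeR adjusted p = 0.034), and other cells of the same libraries held over 5 times as much of it in at least 1 library, which makes it prone to free RNA. Without the cell that held most of it in each library its edgeR adjusted p was 0.29. The median change over the 10 upper follicle genes was -0.05, against -0.01 over all genes tested. That median counts Krt79 and Defb6, which chose the cells, and so rests in part on the rule.

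The named genes that fell included several of the cornifying epidermis. Flg2, a filaggrin-like protein of the cornified layer, was at 637, 936 and 274 CPM in untreated cells at 8, 26 and 52 weeks and at 167, 97.5 and 29.8 CPM in PBMC-sec cells, a log2 change of -2.63 ± 0.36 (SE; edgeR adjusted p = 0.0011). Psors1c2, a secreted protein of the cornifying epidermis, went from 2147, 2902 and 2912 CPM to 219, 827 and 668 CPM (log2 change -2.21 ± 0.46 SE; edgeR adjusted p = 0.034), and its adjusted p was 0.44 without the 8-week pair and 0.057 without the 26-week pair. Sprr2i, another small proline-rich gene with near-identical neighbours, went from 844, 509 and 850 CPM to 5.21, 145 and 64.2 CPM (log2 change -3.41 ± 0.61 SE; edgeR adjusted p = 0.012). Without the cell with the most UMIs of each gene in each library, 34 of 6516 genes (0.522%) passed, of which 28 were among the 45, 16 higher and 12 lower. For Flg2, Psors1c2 and Sprr2i all 3 treated libraries lay below all 3 untreated ones.

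Some of the transcripts that fell were held by few cells, and the calls did not extend to cells with both marker genes (the difference between the kinds of cell was not tested). Flg2 was held by 27, 26 and 7 untreated and by 2, 7 and 8 treated cells, and in the treated 8-week library 1 cell gave 98.4% of its UMIs. Without the cell with the most UMIs in each library, Flg2, Psors1c2 and Sprr2i still fell, by 3.60, 3.15 and 3.34 on the log2 scale (edgeR adjusted p = 0.0089, 0.022 and 0.018). In cells with both marker genes none of the named falls passed in edgeR: Flg2 gave 0.95, Sprr2i 2.82, Glrx 0.29, Psors1c2 -0.73 and Anxa9 -0.52 on the log2 scale, so Flg2, Sprr2i and Glrx had the opposite sign there. In Defb6-only cells 197 of 4920 genes tested (4%) passed in edgeR, 60 higher (1.22%) and 137 lower (2.78%). Psors1c2 gave -3.40 there and did not pass either (edgeR adjusted p = 0.067). In cells with both genes 6 of 4430 (0.135%) passed, all higher, namely Lce3e, Akr1b3, Lce1a1, Lce1a2, Lce1d and Lce1m, and 252 had an unadjusted p under 0.05. The 4 Lce1 genes there rested on the treated 8-week library, with 6122 CPM of Lce1a1 in its 28 cells against 0 to 87.6 CPM in the other libraries. Less 1 cell it was 68.0 CPM there, and Lce1d and Lce1m each came from 1 cell of that library. Lce3e was held by 2, 3 and 3 treated cells with both genes at 8, 26 and 52 weeks. The top cell gave 82.4, 75.3 and 86.5% of those UMIs. Lce genes are close copies whose reads can be split.

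Anxa9, an annexin of the epidermis, went from 147, 222 and 77.2 CPM to 33.9, 16.4 and 22.0 CPM (log2 change -2.33; edgeR adjusted p = 0.012). Glrx, glutaredoxin, which reverses glutathione adducts on proteins, went from 402, 300 and 119 CPM to 122, 84.2 and 28.0 CPM (log2 change -1.71; edgeR adjusted p = 0.0084). Hal, which makes urocanic acid from histidine in the cornified layer, fell by 1.84 (edgeR adjusted p = 0.036), and by 1.86 without the top cell of each library (adjusted p = 0.11). Defb4, an inducible beta-defensin, had the lowest fitted value, -4.76 ± 0.56 (SE; edgeR adjusted p = 0.00031), from 499, 40.2 and 26.7 CPM to 2.60, 4.11 and 1.38 CPM. A single cell held 93.8% of its UMIs in the untreated 8-week library, and without the top cells its edgeR adjusted p was 0.061.

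**Figure D3:**
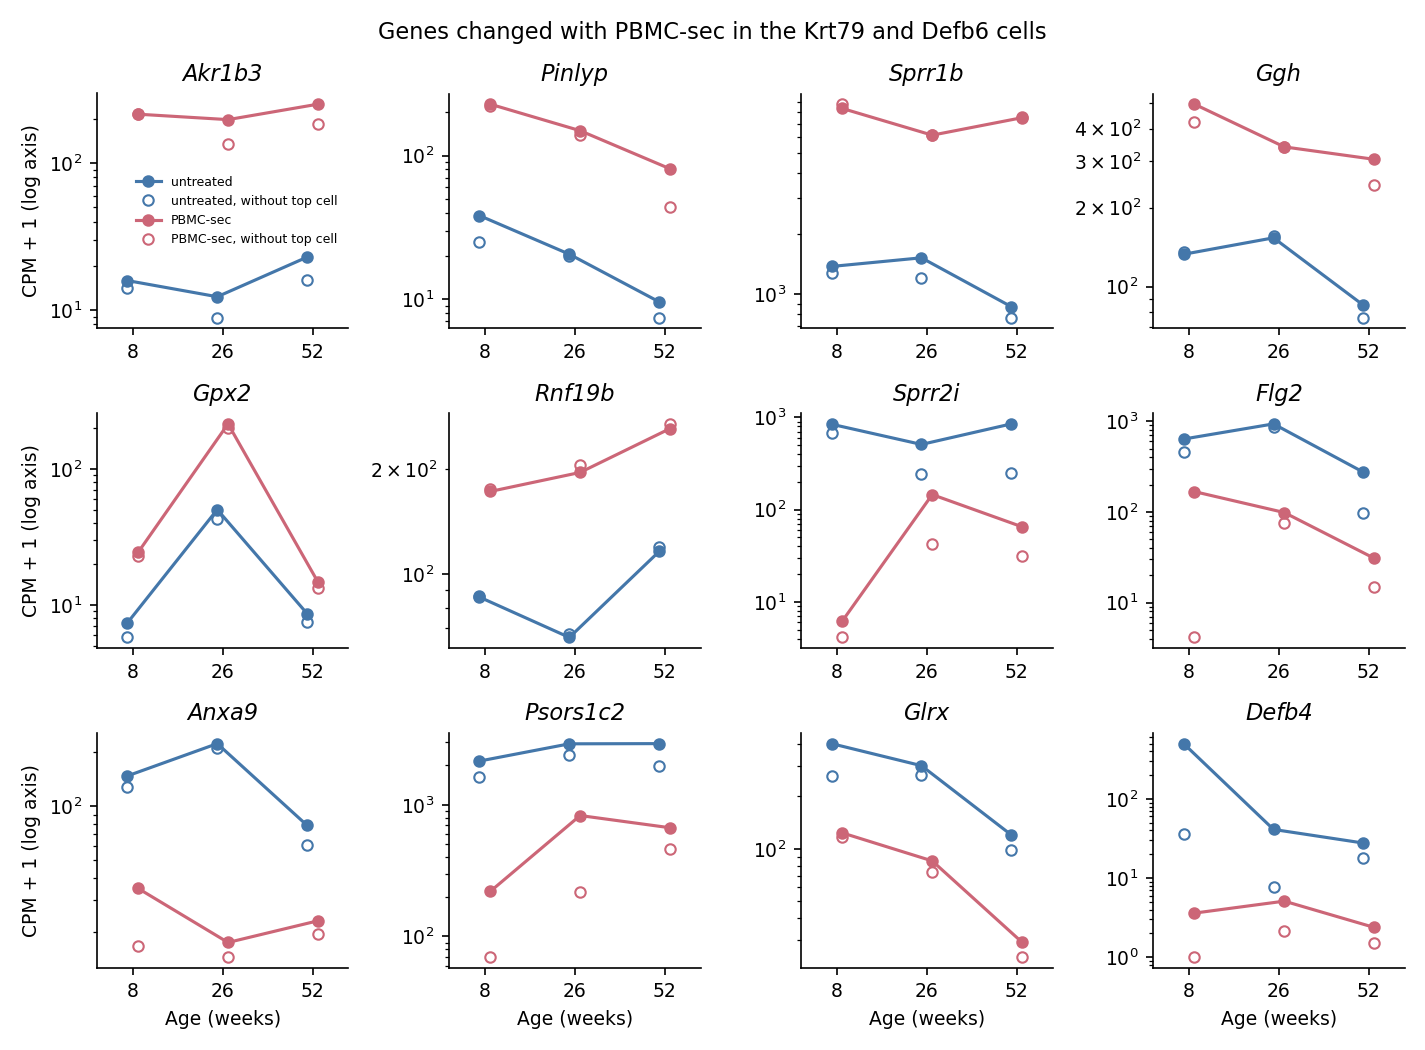
Summed levels (CPM + 1, log axis) of 12 genes that passed the PBMC-sec test, by age in weeks, untreated in blue and PBMC-sec in red; filled points are all chosen cells and open points leave out the cell with the most UMIs of that gene in each library. Akr1b3 stands at 196 to 250 CPM in the treated libraries and at 11.3 to 21.9 CPM in the untreated ones, while Defb4 loses most of its untreated level at 8 weeks when 1 cell is left out.

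By gene group, the changes of the whole set were mostly below the threshold. Of the cornified envelope list, 20 genes were tested, of which Sprr1b rose and Flg2 fell, with a median log2 change of 0.04. Of 12 suprabasal, 12 desmosome and tight junction, 13 protease and 13 lipid barrier genes tested, 0 passed in edgeR's quasi-likelihood test or in DESeq2, and 2, 2, 2 and 1 of them had an unadjusted p under 0.05. Of 14 interferon genes tested, 13 had a negative value, with a median of -1.65 against -0.01 over all genes. An unadjusted p under 0.05 was reached by 11 of them, and 1 passed: Isg15, a ubiquitin-like protein induced by interferon. It went from 164, 47.4 and 148 CPM to 31.3, 23.6 and 35.8 CPM (log2 change -1.60; edgeR adjusted p = 0.030, 0.24 without the 8-week pair and 0.080 without the top cell of each library). Isg15 was prone to free RNA by the same limit. In other keratinocytes, where 482 of 12276 genes passed (3.93%), 261 higher (2.13%) and 221 lower (1.8%), 17 of 20 interferon genes fell, with a median of -2.14, and the difference between the classes passed for 0 of 20 in edgeR, in DESeq2 or at an unadjusted p under 0.05.

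Of 19 NRF2 target genes, 16 had a positive value (median 0.55), 7 had an unadjusted p under 0.05 in edgeR and Gpx2 alone passed. Of 17 glycolysis and hypoxia genes 15 had a positive value (median 0.45), and of 14 ribosomal protein genes 14 had one (median 0.33). In the glycolysis and hypoxia group and the ribosomal group 0 genes passed in edgeR or in DESeq2, and 2 and 0 had an unadjusted p under 0.05. The ages differed: summed ribosomal CPM went from 50792 to 39510 at 8 weeks, 45585 to 49676 at 26 and 46493 to 66274 at 52 weeks. All 14 ribosomal genes also had a positive value in other keratinocytes (median 0.50). Il18, an epithelial cytokine of the interleukin 1 family, went from 85.0, 126 and 36.2 CPM to 0, 4.11 and 7.80 CPM (log2 change -3.44; edgeR adjusted p = 0.0084) and was the 1 of 21 alarmin and chemokine genes that changed. Timp1, an inhibitor of metalloproteases, was the 1 of 14 protease inhibitor genes that changed (log2 change -3.68; edgeR adjusted p = 0.025, 0.33 without the 26-week pair). Il18 and Timp1 were also prone to free RNA by the same 5-fold limit. DESeq2 called none of Isg15, Gpx2, Il18 and Timp1 for PBMC-sec.

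Whether PBMC-sec acted differently on these cells than on other keratinocytes was tested with a class-by-treatment term. Of 11504 genes, 177 (1.54%) passed in edgeR's quasi-likelihood test, 23 higher (0.2%) and 154 lower (1.34%), and 827 had an unadjusted p under 0.05. Of the 154 lower genes, 148 had a positive value in other keratinocytes (median 1.42). Of the 151 also tested in the chosen cells, 128 had a negative value there (median -0.73). The genes were picked by this difference, so such signs are in part built in. In the cornified envelope list 12 of 20 genes were lower (10 passed in DESeq2), with a median difference of -1.58: the median change was 1.71 in other keratinocytes and 0.04 in the chosen cells. Flg, the filaggrin precursor, changed by 3.04 in other keratinocytes (edgeR adjusted p = 0.014) and by 0.70 in the chosen cells (adjusted p = 0.69), and the difference was -2.29 (adjusted p = 0.00084). Cnfn, cornifelin, changed by 2.27 in other keratinocytes (edgeR adjusted p = 0.042) and by -0.25 in the chosen cells, a difference of -2.46 (adjusted p = 2.2e-08). Asprv1, the protease that processes filaggrin, was already at 5143 to 9122 CPM in the untreated chosen cells, against 861 to 1209 CPM in untreated other keratinocytes, which rose to 2477 to 7611 CPM with PBMC-sec.

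**Figure D4:**
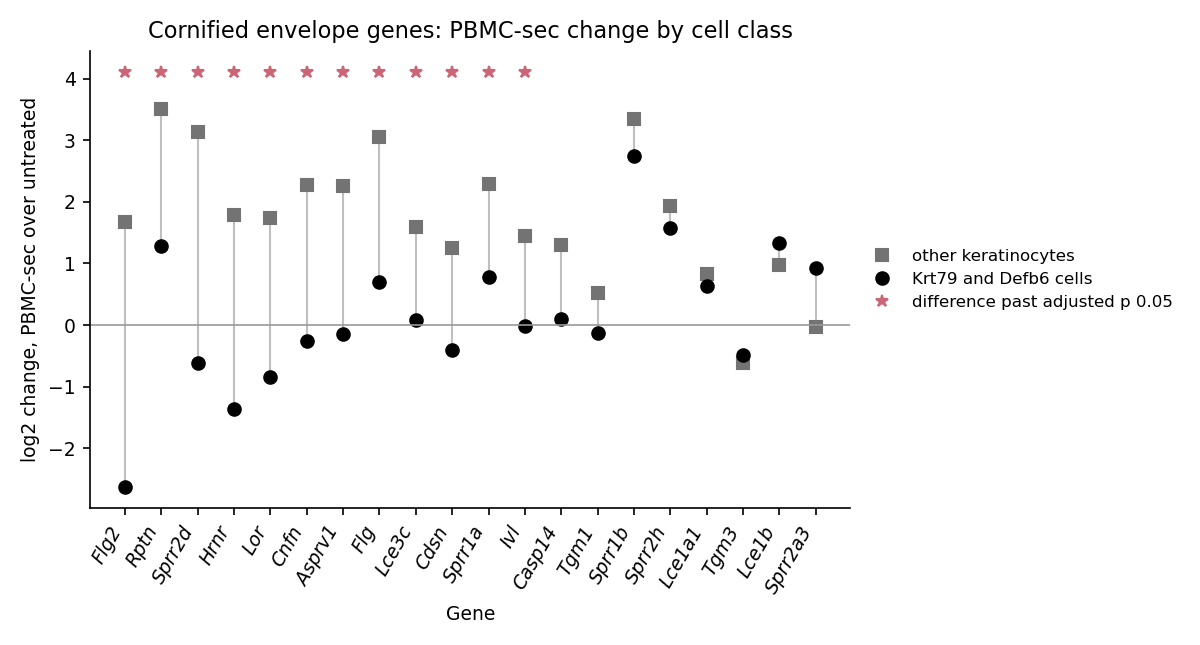
Log2 change with PBMC-sec of 20 cornified envelope genes in the chosen cells (circles) and in other keratinocytes (squares), ordered by the difference; stars mark the 12 genes whose difference passed an adjusted p of 0.05. Flg2 lies at -2.63 in the chosen cells and at 1.68 in other keratinocytes, while Sprr1b lies high in both, at 2.75 and 3.34.

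Beyond the envelope, Ereg, an EGF receptor ligand, showed the same contrast: it went from 502, 457 and 229 CPM to 54.7, 99.6 and 114 CPM in the chosen cells, and from 33.9, 10.0 and 16.2 CPM to 109, 86.2 and 113 CPM in other keratinocytes. The rise in other keratinocytes passed (2.85, edgeR adjusted p = 0.022), the value in the chosen cells did not (-1.89, edgeR adjusted p = 0.056), and the difference was -4.76 (edgeR adjusted p = 6.2e-10). In cells with both marker genes Ereg was at 219, 366 and 12.6 CPM untreated and at 128, 40.4 and 165 CPM with PBMC-sec. The ages there did not share a direction (log2 change -0.24, edgeR adjusted p = 0.99), and the difference was -2.95 (edgeR adjusted p = 1.5e-08). In Defb6-only cells Ereg changed by -2.79 (edgeR adjusted p = 0.010). Of the suprabasal list 4 of 12 genes were lower by this test (Krtdap, Sbsn, Dmkn and Calml3; list median -0.66) and of the proteases 5 of 13 (the kallikreins Klk5, Klk6, Klk7 and Klk8, and Prss8; -0.57). DESeq2 called 3 suprabasal and 4 protease genes. The median over all genes was -0.01. Without the 52-week pair Sprr1a, Dmkn and Klk6 no longer passed (edgeR adjusted p = 0.19, 0.42 and 0.23). Against suprabasal cells alone 114 of 7780 genes passed (1.47%), 13 higher (0.167%) and 101 lower (1.3%). There 11 of 20 cornified envelope genes were lower, with a median of -1.80. Fewer genes of the 2 other lists passed against suprabasal cells: 1 of 12 suprabasal and 2 of 13 protease genes were lower (medians -0.55 and -1.20). In cells with both genes, against other keratinocytes, 1 of 12 and 0 of 13 were lower in edgeR (medians -0.74 and -0.18).

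Cst6 itself was the 1 of 10 upper follicle genes with a different response in edgeR, while DESeq2 called 0 of them and 3 had an unadjusted p under 0.05 in edgeR. The 10 include Krt79 and Defb6, which chose the cells and are absent from other keratinocytes by definition. For Cst6, no part of the rule, the values follow. The Cst6 difference was -1.29 (edgeR adjusted p = 0.0013): the chosen cells held less in the treated library at each age while other keratinocytes held 386, 219 and 341 CPM untreated and 562, 335 and 332 CPM with PBMC-sec. In cells with both genes Cst6 was at 26984, 23018 and 23074 CPM untreated and at 15639, 12182 and 22339 CPM with PBMC-sec, a difference of -1.09 (edgeR adjusted p = 0.033). After each cell was thinned to 1000 UMIs the difference over all chosen cells was 0.03 (edgeR adjusted p = 1). In the cells with both genes 60 of 11098 genes (0.541%) passed the test of the difference in edgeR, 27 higher (0.243%) and 33 lower (0.297%), of which 30 were also among the 177. Flg, Asprv1, Sprr1a, Hrnr and Rptn were among the cornified genes with a lower value there, as were Sprr2e, Sprr2f and Sprr4. Lor (1.97), Lce1a1 and Lce1b were higher, as were Sprr2i and further Lce1 and Lce3 genes. Of the 20 genes of the cornified envelope list, 5 were lower and 3 higher. In the treated 8-week library a single cell held most of Lor and most of Lce1a1. In cells with both genes Lor was at 61.3 and 23484 CPM at 8 weeks (untreated and PBMC-sec), at 6937 and 254 CPM at 26 weeks and at 87.9 and 2536 CPM at 52 weeks, so the ages did not share a direction. Nor did they for Flg, Asprv1, Hrnr and Rptn, while Sprr1a rose at each age. Flg was at 81.0 and 1119 CPM at 8 weeks, 326 and 31.8 CPM at 26 weeks and 203 and 135 CPM at 52 weeks. Rptn was also prone to free RNA.

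Of the 23 genes with a higher response in the chosen cells, 18 had a negative value in other keratinocytes (median -0.80). Picking by the difference in part builds in this sign too. Gjb2, the gap junction protein connexin 26, went from 734, 800 and 847 CPM to 321, 297 and 399 CPM in other keratinocytes and from 882, 1142 and 422 CPM to 971, 660 and 555 CPM in the chosen cells (difference 1.03; edgeR adjusted p = 0.031). Ero1l, an oxidase of protein folding that hypoxia induces, went from 674, 744 and 1255 CPM to 424, 382 and 302 CPM in other keratinocytes and from 390, 383 and 758 CPM to 576, 527 and 362 CPM in the chosen cells (difference 1.10; edgeR adjusted p = 0.017). Stfa1 (1.48) and Stfa3 (1.17), stefin A cysteine protease inhibitors that are close copies of each other, Lcn2, an iron-siderophore binder (1.20), and Fgfbp1, which releases fibroblast growth factors from matrix (1.05), made up the other genes named by size. In cells with both genes these 6 differences were -0.57 to 0.84 and none passed in edgeR. None of the 6 held in every leave-one-out fit: without the 52-week pair the edgeR adjusted p was 0.094 to 0.74.

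Across age, fewer genes passed. Between 52 and 8 weeks 20 of 7141 genes (0.28%) passed edgeR's quasi-likelihood test, 6 higher (0.084%) and 14 lower (0.196%), and 637 had an unadjusted p under 0.05. The most widely held were 2 genes that rose: Snhg3, a small nucleolar RNA host gene, went from 34.0 and 80.7 CPM (untreated and PBMC-sec) at 8 weeks to 146 and 241 CPM at 52 weeks (log2 change 1.91; edgeR adjusted p = 0.031), and Gm47283 from 24.4 and 18.2 to 123 and 73.8 CPM (log2 change 2.15; edgeR adjusted p = 0.049). Their UMIs were spread over 45 to 95 cells per library at 52 weeks. Glrx fell from 402 and 122 CPM to 119 and 28.0 CPM (log2 change -1.87; edgeR adjusted p = 0.034). Without the cell with the most UMIs of each gene in each library, 0 genes passed in edgeR and 529 had an unadjusted p under 0.05, though Snhg3, Gm47283 and Glrx kept changes of 1.75, 2.29 and -1.79 (adjusted p = 0.21 each).

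The 14 genes lower at 52 weeks included 4 of the 10 sebaceous gland genes tested: Elovl3, which elongates the fatty acids of sebum (-6.22), Awat1, which makes wax esters (-5.26), Cidea, a lipid droplet protein (-3.25), and Far2, which makes fatty alcohols (-6.27 on the log2 scale). In DESeq2 1 of these 10 genes, Cidea, passed. The share of sebaceous-marker cells was 3.09 and 2.55% at 52 weeks against 1.53 and 7.69% at 8 weeks (untreated and PBMC-sec). All 10 sebaceous genes had a negative value, with a median of -2.98 against 0.01 over all genes. Elovl3 was at 47.8 and 492 CPM at 8 weeks, untreated and PBMC-sec, at 5.15 and 0 CPM at 26 weeks and at 6.67 and 0 CPM at 52 weeks. These levels came from very few cells, with 1 and 3 cells holding Elovl3 at 8 weeks and 1 and 2 cells holding Awat1. Without the 28 cells with sebaceous markers, Elovl3, Awat1, Cidea and Far2 were too low to be tested. Elovl3 and Awat1 help define those cells, so their loss follows in part from the definition. Rarres1, a retinoid-responsive gene, went from 199 and 440 CPM at 8 weeks to 45.8 and 12.8 CPM at 52 weeks (log2 change -3.75; edgeR adjusted p = 0.018), but 1 cell gave 87.7% of it in the untreated 8-week library, and without the sebaceous-marker cells its change was 0.86.

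**Figure D5:**
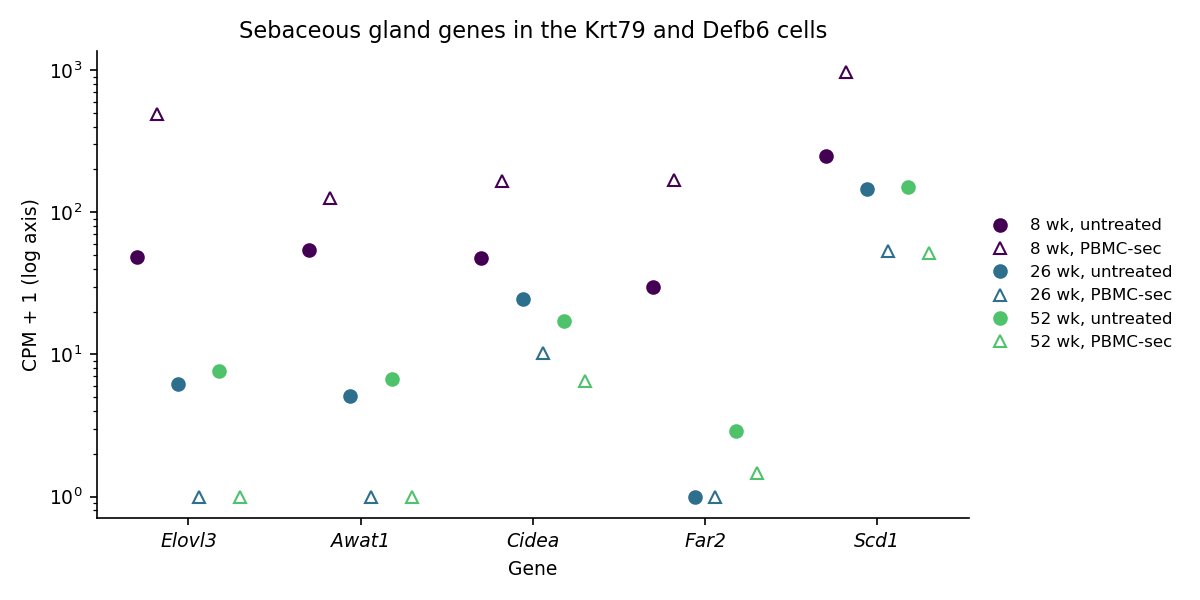
Summed levels (CPM + 1, log axis) of 5 sebaceous gland genes in the chosen cells of each library; filled circles are untreated and open triangles PBMC-sec, and colours give age. The 8-week libraries stand highest for all 5 genes, with Elovl3 at 47.8 and 492 CPM, values that 1 and 3 cells gave.

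Between 26 and 8 weeks 26 of 7141 genes (0.364%) passed edgeR's quasi-likelihood test, 1 higher (0.014%) and 25 lower (0.35%), and 216 had an unadjusted p under 0.05. Gpx2 was the gene that rose, by 3.11 (edgeR adjusted p = 0.0018), and it was the 1 of 6516 genes (0.0153%) that still passed without the top cell of each library, at 3.19 (adjusted p = 0.044). The lower genes included Elovl3, Awat1, Soat1 and Far2 of the sebaceous list and Lce1a1 (-3.43) and Lce1b (-3.65) of the cornified list. Without the top cells Lce1a1 gave -1.02 and Lce1b -0.80, and Elovl3, Awat1, Soat1 and Far2 were too low to be tested.

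In the cells with both marker genes, 7 of 4430 genes (0.158%) passed edgeR between 52 and 8 weeks, all lower, and none of them was among the 20 above. Klk6, a kallikrein protease, went from 2816 and 5283 CPM at 8 weeks (untreated and PBMC-sec) to 1594 and 2226 CPM at 26 weeks and to 193 and 333 CPM at 52 weeks (log2 change -3.96; edgeR adjusted p = 0.020). Klk10, another kallikrein, went from 206 and 317 CPM at 8 weeks to 30.1 and 59.97 CPM at 52 weeks (log2 change -2.61; edgeR adjusted p = 0.037). Both 8-week libraries stood above both 52-week libraries for these 2 proteases, also when the cell with the most UMIs was left out: Klk6 was then at 1822 and 2147 CPM at 8 weeks against 141 and 236 CPM at 52 weeks, and Klk10 at 164 and 151 CPM against 25.1 and 49.3 CPM. Over all chosen cells their changes were -1.93 and -0.84 and did not pass (edgeR adjusted p = 0.16 and 0.56). Tslp, an epithelial cytokine that acts on dendritic cells, also passed (log2 change -3.80; edgeR adjusted p = 0.0085), but 1 cell gave 94.97% and 91.1% of it in the 8-week libraries, and without those cells it was at 21.9 and 30.2 CPM at 8 weeks against 22.6 and 19.99 CPM at 52 weeks. Krt75, a keratin of the follicle, and the close copies Lce1a1, Lce1a2 and Lce1d made up the 7, and single cells carried them too: 1 cell gave 95.7% of Krt75 in the untreated 8-week library and 98.9 to 100% of the Lce1 genes in the treated one.

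The age change differed from that of other keratinocytes for 72 of 11504 genes (0.626%), 9 higher (0.0782%) and 63 lower (0.548%), and 721 had an unadjusted p under 0.05 in edgeR's quasi-likelihood test. Of the cornified envelope list 8 of 20 genes were lower by this test, with a median difference of -1.24. Lor went from 7297 and 8110 CPM at 8 weeks to 6656 and 2142 CPM at 52 weeks in the chosen cells and from 1532 and 2957 to 3352 and 9102 CPM in other keratinocytes, a difference of -2.56 (edgeR adjusted p = 0.00025). That value turned to 0.60 without the top cells: 1 cell of 65 gave 99.7% of Lor in the treated 8-week library. Against suprabasal cells alone, 6 of 7780 genes (0.0771%) passed in edgeR, 5 of them lower (0.0643%). The other keratinocytes of the 52-week PBMC-sec library also held a larger part of suprabasal cells (144 of 940) than those of the 8-week PBMC-sec library (107 of 2208), and the part of this in the result was not tested.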

How the data were processed

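The deposited values are raw UMI counts of each gene in each called cell, written by Cell Ranger 5.0.1 per the file headers and mapped on mm10 (GRCm38) per the submitters' processing notes. Libraries used the Chromium 3′ kit per the labels, and each pooled 3 animals. The 6 libraries held 19956655 to 40211991 UMIs and, after the filters, 3686 to 9237 cells with a median of 1128 to 4804 UMIs each. The chosen cells and all gene lists were selected with earlier results of these data known, so no list is independent evidence.

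UMIs were summed per library and class and fitted with edgeR 4.0.16 (R 4.3.3; TMM factors, low-count filter, quasi-likelihood test, Benjamini-Hochberg over all genes tested) with age and treatment as terms, which left 2 residual degrees of freedom. The class-by-treatment and class-by-age terms used 12 sums with the library as a block. CPM are UMIs per 1000000 of the sum, and spread between libraries may be technical. DESeq2 1.42.0, other factors and filters, thinning, cell limits and leaving out an age were alternatives. Others were added after seeing the data: no sebaceous-marker cells, at least 5 keratin UMIs, suprabasal cells as comparator, no Nppb and Epgn limits, Defb6-only cells, and sums without the cell with the most UMIs of each gene.

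Named genes were, per contrast, up to 12 in each direction with the largest change at 50 CPM or more, passing, moving alike at all ages (or in both treatments) and not prone to free RNA. Free RNA prone means that all other cells held over 5 times the level in at least 1 library. For the class terms up to 6 in each direction were named, and from each list the members that passed and those most abundant. Genes named in cells with both marker genes, and counts by kind of cell, were chosen after their values were seen. Scrublet (scanpy 1.11.5) called 1 barcode as a doublet in all and so did not work, and doublets were kept. In an alternative the top scores at 0.8% per 1000 barcodes were removed. Barcodes were called near-identical repeats where groups of at least 10 in a library differed from each other by no more than about counting noise. The fits were tested on simulated counts. Sequences came from RefSeq, and positions from GENCODE on GRCm38. Close copies (Sprr2, Lce, Stfa and beta-defensin genes) can share reads and are uncertain. Genes not in the files under the listed symbol were not analysed here, and some results on single genes are not reported here.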

Additional observations from a re-analysis of the deposited data

Results flagged for a closer look

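The change with PBMC-sec differed between the chosen cells and other keratinocytes by the class-by-treatment term of edgeR's quasi-likelihood test in 12 named genes, with 3 ages as samples. Lower in the chosen cells were Defb4 (-5.59), Sprr2i (-4.80), Ereg (-4.76), Flg2 (-4.25), Sprr2d (-3.89) and Sprr2e (-3.69 on the log2 scale), with adjusted p from 6.2e-10 to 0.00011. Defb4 was no longer past the threshold without the 8-week pair (adjusted p = 0.86) or without the cell with the most UMIs in each library (0.65). Higher were Stfa1 (1.48), Lcn2 (1.20), Stfa3 (1.17), Ero1l (1.10), Fgfbp1 (1.05) and Gjb2 (1.03), with adjusted p from 0.0057 to 0.039.

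The change from 8 to 52 weeks differed between the same classes in 7 named genes by the class-by-age term of edgeR. Gm26917 was higher (1.81, adjusted p = 0.0067) in the chosen cells. Lower were Rarres1 (-3.78), Chil1 (-3.59), Rnf227 (-3.44), Flg2 (-2.76), Lor (-2.56) and Krt78 (-2.51), with adjusted p from 6.9e-06 to 0.010. Without the cell with the most UMIs in each library Chil1, Krt78 and Lor no longer passed (edgeR adjusted p = 0.059, 0.089 and 0.66). Chil1 encodes a chitinase-like lectin and Krt78 a keratin of differentiating epithelia.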

How the results depend on the processing

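No paired analysis was possible because the replicate numbers pair no libraries: each age and treatment has 1. Treated and untreated libraries were matched by age instead, through the age term and the ratios of shares. Of the alternatives for named genes, 1185 kept direction and side of the threshold, 315 lost the call and 26 reversed. The 315 kept their direction, except that it was not compared where an alternative gave no adjusted p. The mean log2 ratio of the shares moved by less than its SD, at -0.36 to 0.14 with 1 age left out. It was positive without the 8-week pair (0.14), over keratinocytes alone with the repeated barcodes kept (0.28) and without the Nppb and Epgn limits (0.25).

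For PBMC-sec the 45 calls became 135 with no filter, 6 in cells with both genes, 11 thinned, 76 at 5% mitochondrial UMIs, 5 with no age term, 81 without sebaceous-marker cells, 461 without the Nppb and Epgn limits, 197 in Defb6-only cells and 58 to 193 with 1 age left out. Between 52 and 8 weeks the 20 calls became 13 with DESeq2, 92 with no filter, 7 in cells with both genes, 6 thinned, 34 at 5% mitochondrial UMIs, 11 without the highest doublet scores, 34 without the limits, 8 in Defb6-only cells, 0 without top cells and 163 with 26 weeks left out. Between 26 and 8 weeks the 26 calls became 16 with DESeq2, 56 with no filter, 14 at 4 UMIs, 4 in cells with both genes, 2 thinned, 15 without sebaceous-marker cells, 17 with 5 keratin UMIs, 3 in Defb6-only cells, 1 without top cells and 53 with 52 weeks left out. For the class-by-treatment term the 177 calls became 89 with DESeq2, 338 at 4 UMIs, 60 in cells with both genes, 45 thinned, 114 against suprabasal cells, 490 in Defb6-only cells and 172 to 296 with 1 age left out. For the class-by-age term the 72 calls became 25 with DESeq2, 161 with no filter, 145 in cells with both genes, 38 thinned, 35 against basal and suprabasal cells, 130 without sebaceous-marker cells, 6 against suprabasal cells and 295 with 26 weeks left out. The cause of these moves was not tested, beyond the fewer cells or genes that an alternative leaves.

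Reversed values for PBMC-sec in cells with both genes were Ccdc71l -0.10, Sprr2i 2.82, Flg2 0.95 and Glrx 0.29. In the class-by-treatment term they were Sprr2i 2.49, Stfa1 -0.57, Fgfbp1 -0.074, Gjb2 -0.56, Lor 1.97 and Klk6 0.089 in cells with both genes, Lcn2 -0.42 and Cst6 0.027 thinned, and Pf4 -1.35 against suprabasal cells and -6.69 in Defb6-only cells. Rarres1 reversed without sebaceous-marker cells between 52 and 8 weeks (0.86), between 26 and 8 weeks (0.72, and 0.48 in Defb6-only cells) and in the class-by-age term (0.54, and 1.25 in cells with both genes). In the class-by-age term Lor gave 1.06 at 4 UMIs, 0.83 in Defb6-only cells and 0.60 without top cells. Defb6-only cells reversed Plin2 (0.61), Krt75 (1.69) and Lce1a1 (0.30) there, and Krt75 gave 0.40 without the limits.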
